A study of Mus musculus with 13 samples.

Results

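Lxn, Nr4a2, Ntng2 and Gng2, genes that have long served to mark the claustrum, and Crym, a gene used to outline the claustrum because it is lower there than in the neighboring cortex, were followed in single claustral cells. These 5 genes were chosen by name, and all were listed in both deposited count tables, which share 16575 genes. Cells were harvested by hand from microdissected claustrum of 4 mature male wild-type C57BL/6 mice, 1112 cells in 13 plates. In 1 mouse, called here the blindly sampled mouse, rAAV2-retro-CAG-GFP in the anterior cingulate cortex helped to cut out the tissue, and cells were picked without regard to it. In the remaining mice, called here projection mice 1 to 3, retrobeads had been placed in the lateral entorhinal cortex (LEC) and the retrosplenial cortex (RSC). These fluorescent beads are carried back along axons to the cell body, and cells of the projection mice were taken as RSC-labeled, LEC-labeled or unlabeled.

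The 1011 cells with at least 1 count of Snap25, a neuronal gene, and of Slc17a7, a vesicular glutamate transporter of excitatory neurons, were kept. The blindly sampled mouse gave 238 of them and projection mice 1 to 3 gave 224, 220 and 329. Kept cells were grouped by Synpr, a synaptic vesicle gene of claustral cells, in CPM, the counts of a gene scaled to the same total in every cell. The 438 cells at 200 CPM or more are called Synpr-high and the other 573 Synpr-lower. Of the latter, 343 had Slc30a3, a vesicular zinc transporter, at 50 CPM or more and are called Slc30a3-high, and 230 were low for both. Synpr and Slc30a3 made these groups and are not results. Of the markers listed for core-like claustral cells, the 3 other than Synpr, namely Gnb4, Slc17a6 and Gfra1, summed to 1161 to 1617 CPM in the Synpr-high cells of the 4 mice and 124 to 242 CPM in the others. The deep cortical layer markers, 8 in all, summed to 15.1 to 35.4 CPM and 135 to 299 CPM.

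The median depth was 26023 counts per kept cell in the blindly sampled mouse and 138535 to 154262 in the projection mice. The former filled 3 plates and the latter 10, so mouse, plate and depth cannot be told apart between them. The paper put 3 plates on 1 flow cell and 10 on another without naming them. If these were the same sets, run cannot be told apart either. In the projection mice, 9 of 10 plates held cells of a single label and 1 plate held both labels. Markers of inhibitory neurons, 5 of 6 found in the tables, were all at 0 in the blindly sampled mouse and summed to 94.4 and 142 CPM in the Synpr-high cells of projection mice 1 and 3, where all other sums were 33.0 CPM or less. A gene that a table did not list was taken as 0 in its cells, so a 0 in the blindly sampled mouse may mean not listed. Markers of oligodendrocytes, 5 of 5 found, were higher in Synpr-lower cells of all 4 mice, at 25.4, 337, 32.4 and 65.4 CPM in Synpr-high and 48.5, 598, 539 and 104 CPM in Synpr-lower cells of the blindly sampled mouse and projection mice 1 to 3, and they move with the comparison of these groups. The astrocyte, microglia and vascular lists summed to at most 8.18 CPM in any group. The part of these cell types in the results was not tested. The tables shared no cell name, and 343 of 368 cell barcodes were used in more than 1 plate.

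Latexin, the product of Lxn, inhibits carboxypeptidases of the A family. Nr4a2 encodes an orphan nuclear receptor that acts as a transcription factor. Gng2 encodes a gamma subunit of heterotrimeric G proteins, Ntng2 encodes netrin-G2, a membrane-anchored ligand of the synaptic adhesion protein encoded by Lrrc4, and Crym encodes mu-crystallin, a cytosolic protein that binds thyroid hormone. The claustrum is a thin sheet of mostly excitatory neurons beneath the insular cortex, so a marker must separate its cells from adjoining cortical cells.

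Lxn, Nr4a2 and Gng2 were the 3 members that were high together in Synpr-high cells, so their promoters are shown. Each runs from 250 bases before to 50 bases after the start of the gene in RefSeq (build GRCm38.p6, all on the minus strand), at chr3:67463858-67464157 for Lxn, chr2:57123954-57124253 for Nr4a2 and chr14:19976644-19976943 for Gng2. Capitals mark CG dinucleotides.
Lxn: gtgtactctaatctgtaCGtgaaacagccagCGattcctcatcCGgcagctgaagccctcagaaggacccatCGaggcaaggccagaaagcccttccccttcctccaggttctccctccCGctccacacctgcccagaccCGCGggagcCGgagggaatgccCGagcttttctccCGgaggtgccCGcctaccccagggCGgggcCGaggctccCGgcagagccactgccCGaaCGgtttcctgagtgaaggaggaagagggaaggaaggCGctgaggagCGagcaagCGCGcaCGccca
Nr4a2: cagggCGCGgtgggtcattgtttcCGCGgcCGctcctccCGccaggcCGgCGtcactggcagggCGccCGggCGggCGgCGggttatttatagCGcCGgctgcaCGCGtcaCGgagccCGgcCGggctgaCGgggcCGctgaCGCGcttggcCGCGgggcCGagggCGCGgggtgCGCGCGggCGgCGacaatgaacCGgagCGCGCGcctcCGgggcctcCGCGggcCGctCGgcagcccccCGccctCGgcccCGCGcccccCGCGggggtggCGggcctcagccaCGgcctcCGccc
Gng2: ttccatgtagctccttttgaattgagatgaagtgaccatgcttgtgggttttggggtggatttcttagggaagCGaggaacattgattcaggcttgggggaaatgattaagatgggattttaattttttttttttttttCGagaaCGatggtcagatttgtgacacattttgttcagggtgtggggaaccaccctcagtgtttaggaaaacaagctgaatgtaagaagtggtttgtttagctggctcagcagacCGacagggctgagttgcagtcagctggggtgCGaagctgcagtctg
The Nr4a2 promoter held 52 CG dinucleotides, more than 99.4% of 32851 mouse promoters of this length, whereas Lxn held 21 and Gng2 held 5, against a median of 7. The site AAAGGTCA, which NR4A receptors bind as monomers, was searched on both strands and was found in 1.51% of all promoters but in none of these, nor in that of Ntng2. The table held no entry for Crym.

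The first question was how far each gene separated Synpr-high cells from the rest. Lxn, Nr4a2, Gng2 and Ntng2 rose and Crym fell in Synpr-high cells when counts were summed per mouse. All 5 passed the test, whereas 8.82% of 13641 genes tested did, 4.48% being higher and 4.34% lower. With mouse as a block 14.6% did, and the 5 members still passed. All tests below are edgeR quasi-likelihood F tests with Benjamini-Hochberg adjustment over all genes tested. All fold changes are log2 values ± SE, and levels of sums are CPM after TMM scaling. The SE was taken as the size of the log2 fold change divided by the square root of F. How many of all genes had groups without overlap was not counted, so statements that groups were separate describe the values only.

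Lxn stood at 1243 CPM in the Synpr-high cells of the blindly sampled mouse and at 1460, 1748 and 1495 CPM in those of projection mice 1 to 3. In Synpr-lower cells of the same mice it stood at 121, 84.7, 306 and 191 CPM. The groups did not overlap, and the lowest Synpr-high value was several times the highest Synpr-lower value. The fold change was 3.08 ± 0.35 (adjusted p = 4.58e-04, higher in 4 of 4 mice).

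Nr4a2 was at 1828 CPM in Synpr-high cells of the blindly sampled mouse and at 1459, 1423 and 1552 CPM in those of projection mice 1 to 3, against 267, 97.8, 173 and 211 CPM in Synpr-lower cells. The blindly sampled mouse had the highest value in both groups, and the groups did not overlap. The fold change of Nr4a2 was 3.07 ± 0.27 (adjusted p = 9.47e-05). Its family member Nr4a1, an immediate early gene, differed by 0.94 ± 0.67 (adjusted p = 0.519), and Nr4a3 by -0.78 ± 0.48 (adjusted p = 0.444).

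Gng2 varied least among mice. Its levels were 655, 709, 613 and 640 CPM in Synpr-high cells and 140, 166, 164 and 175 CPM in Synpr-lower cells, in the same order of mice. These groups were also separate, with a fold change of 2.02 ± 0.10 (adjusted p = 2.86e-06), smaller than those of Lxn and Nr4a2 but with the smallest error.

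Ntng2 was near the limit of detection. It had 9, 47, 62 and 205 counts in all Synpr-high cells of the blindly sampled mouse and projection mice 1 to 3, and 5, 6, 23 and 19 counts in all Synpr-lower cells. As levels these were 2.81, 2.56, 5.04 and 7.38 CPM against 1.33, 0.31, 1.07 and 0.68 CPM. The Ntng2 difference of 2.47 ± 0.64 passed the test (adjusted p = 0.0376), but it did not without projection mouse 1, 2 or 3 (adjusted p = 0.0948, 0.143 and 0.284), nor in cells without a projection label (adjusted p = 0.270).

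Crym ran the opposite way. It was at 3.43, 11.5, 1.14 and 0.18 CPM in Synpr-high cells and at 48.9, 238, 207 and 164 CPM in Synpr-lower cells of the blindly sampled mouse and projection mice 1 to 3. No Synpr-high value reached the lowest Synpr-lower value, that of the blindly sampled mouse. Crym fell by 5.32 ± 1.02 (adjusted p = 0.00873), and without projection mouse 2 the adjusted p was 0.0713. In Synpr-high cells these levels rested on 11, 211, 14 and 5 counts in all, and 1 cell of projection mouse 1 held 81 of the 211.

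The Synpr-lower cells were then split by Slc30a3. Lxn averaged 1495 ± 208 CPM in Synpr-high cells (SD, n = 4 mice), 216 ± 101 CPM in Slc30a3-high cells and 108 ± 73.0 CPM in cells low for both. Crym ran in the reverse order, at 4.08 ± 5.17, 110 ± 62.2 and 266 ± 125 CPM. Gng2 was at 658 ± 41.4, 165 ± 16.1 and 156 ± 16.6 CPM, and Nr4a2 was at 1574 ± 183, 200 ± 50.2 and 162 ± 106 CPM, so that the lower groups of either gene lay within each other's spread.

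**Figure D1:**
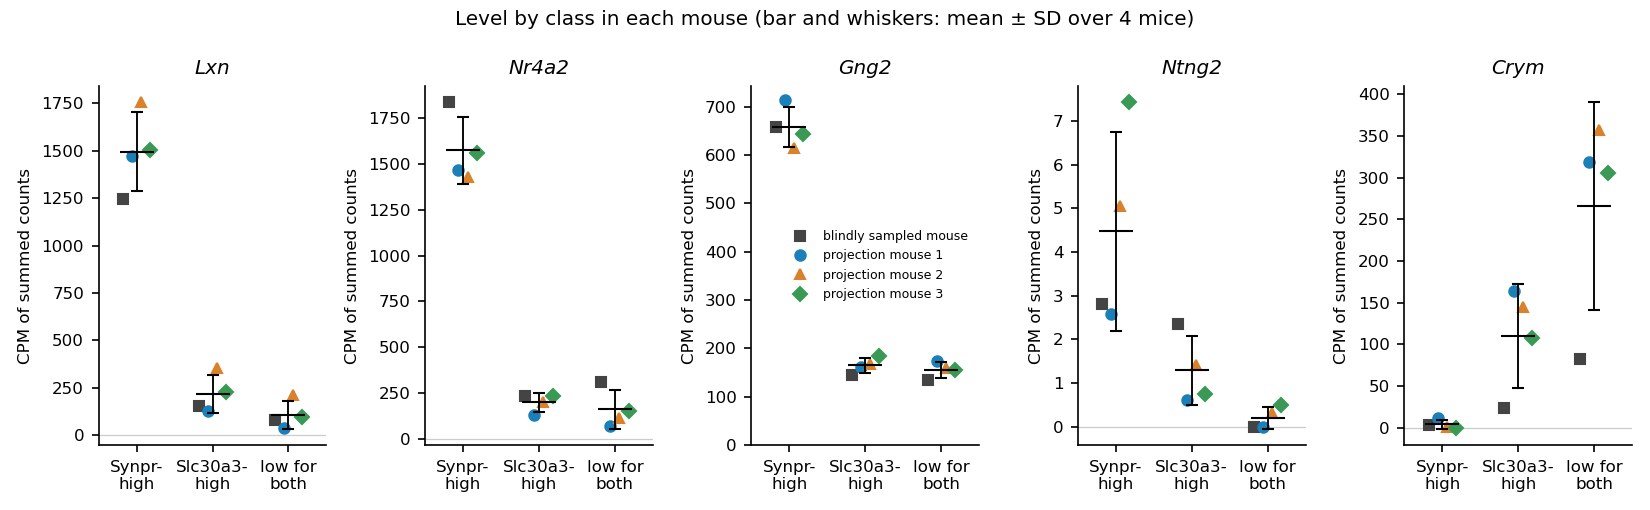
Level (CPM of counts summed per mouse, TMM scaled, linear axes) of the 5 genes in Synpr-high cells, Slc30a3-high cells and cells low for both, with 1 point per mouse and the mean ± SD over 4 mice. Lxn, Nr4a2 and Gng2 are high in the Synpr-high cells of all 4 mice, and Crym is near 0 there and highest on average in cells low for both.

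Against Slc30a3-high cells, Synpr-high cells were higher for Lxn by 2.79 ± 0.42, for Nr4a2 by 2.98 ± 0.36 and for Gng2 by 1.997 ± 0.12 (adjusted p = 8.91e-04, 1.61e-04 and 3.03e-07), and lower for Crym by a log2 change of -4.74 ± 0.94 (adjusted p = 0.00648, and 0.0872 without projection mouse 2). These 4 members passed and Ntng2 did not (1.88 ± 0.87, adjusted p = 0.284), whereas 7.03% of 13121 genes did. Against cells low for both, all 5 passed, with 8.86% of genes called, and the fold changes of Lxn, Nr4a2, Gng2 and Crym were 3.79 ± 0.44, 3.30 ± 0.37, 2.08 ± 0.12 and -6.003 ± 0.996. Ntng2 had 0, 0, 2 and 4 counts in cells low for both, so no fold is given for it, and its call was lost without any 1 of the projection mice (adjusted p = 0.0584 to 0.113). With mouse as a block, these comparisons called 1510 and 1795 genes in place of 923 and 1163.

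Between Slc30a3-high cells and cells low for both, no member passed, and 0.617% of genes did (81 genes, and 226 with mouse as a block). Lxn came closest, with 1.003 ± 0.40 (adjusted p = 0.416), higher in 4 of 4 mice. With mouse as a block the Lxn difference was 1.10 ± 0.24 and passed (adjusted p = 0.0398), as it did in cells without a projection label (2.08, adjusted p = 0.0226). Crym differed by -1.27 ± 0.80 (adjusted p = 0.724), lower in 4 of 4 mice.

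Single cells of both groups often held counts of Lxn, Nr4a2 and Gng2. The share of cells with a count depends on depth, so each cell was thinned to 20000 counts, which left 406 Synpr-high and 521 Synpr-lower cells. Lxn was then detected in 99.0 ± 1.27% of Synpr-high cells (mean ± SD of 4 mice) but also in 45.7 ± 8.55% of Synpr-lower cells. Nr4a2 was detected in 99.2 ± 0.98% and 57.1 ± 16.8%, and Gng2 in 99.4 ± 0.68% and 80.1 ± 3.04%. Most Synpr-lower cells thus held Gng2. Without thinning, the shares of Synpr-lower cells were 61.1%, 69.1% and 89.6% for the 3 genes.

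Crym and Ntng2 were detected less often. Crym was found in 2.91 ± 2.23% of thinned Synpr-high cells and in 50.2 ± 23.1% of thinned Synpr-lower cells, and within the latter in 16.3% of cells of the blindly sampled mouse but 54.5% to 65.4% of those of the projection mice. Ntng2 was found in 6.39 ± 1.11% and 1.06 ± 0.97% of cells. Without thinning, 61 of 438 Synpr-high cells and 16 of 573 Synpr-lower cells had any Ntng2, so most cells of either group had no count of it. For comparison, the 74 cells with Snap25 but no Slc17a7, which were left out, had a median of 6597 counts, against 122797 in kept cells. They held Lxn in 32 cells, Nr4a2 in 38, Gng2 in 30, Crym in 4 and Ntng2 in 0. The last allows a share of up to 4.86% (95% exact binomial limit, counting error only). Only 5 of the 74 had Gad1 or Gad2, genes of inhibitory neurons. Excitatory cells whose Slc17a7 was missed at low depth may be among them, so no specificity is read from these counts.

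**Figure D2:**
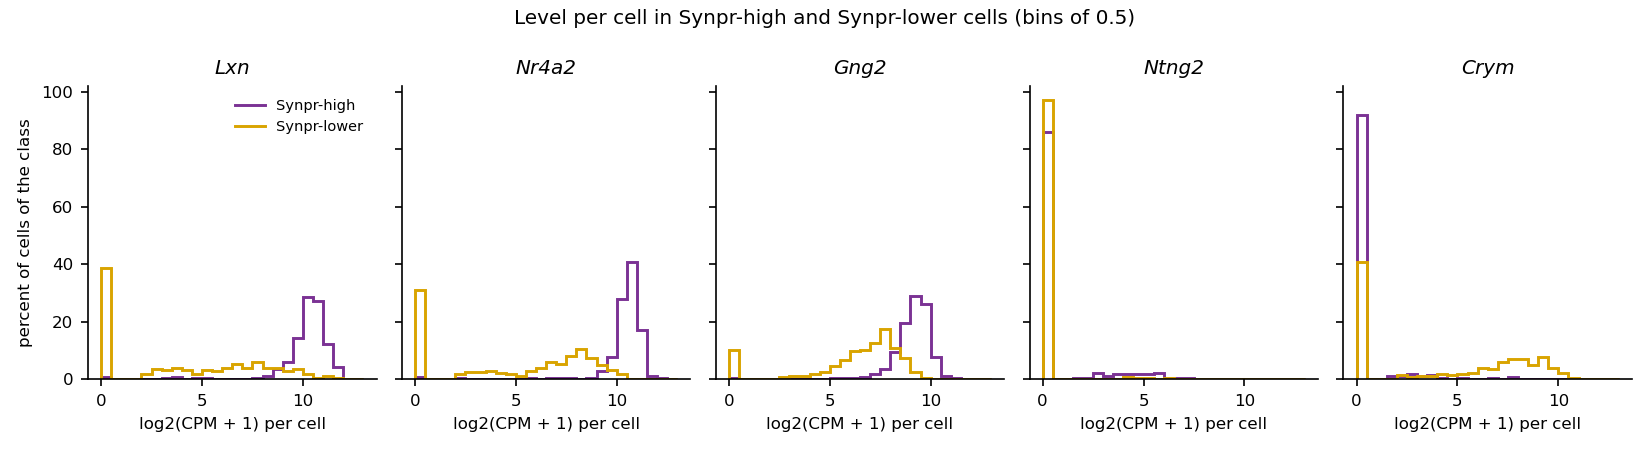
Histograms of the level per cell, log2(CPM + 1) in bins of 0.5, for the 5 genes, with the percent of the 438 Synpr-high cells (purple) and of the 573 Synpr-lower cells (yellow) on the vertical axis. Synpr-high cells form a single high peak for Lxn, Nr4a2 and Gng2, Synpr-lower cells spread from 0 upward, and most Synpr-high cells sit at 0 for Ntng2 and Crym.

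The level of each gene was next used to sort cells. The area under the curve is the chance that a Synpr-high cell holds more of a gene than a Synpr-lower cell of the same mouse, with a tie counted as 0.5. It was 0.982 ± 0.00782 for Nr4a2 (mean ± SD of 4 mice, from 0.972 to 0.990), 0.956 ± 0.0179 for Lxn (0.931 to 0.972) and 0.944 ± 0.0126 for Gng2 (0.926 to 0.954). The ranges of Lxn and Gng2 overlapped. Ntng2 was at 0.553 ± 0.0289, near the 0.5 of a gene that does not sort cells, and Crym, lower in Synpr-high cells, at 0.229 ± 0.109. For Ntng2 and Crym most Synpr-high cells were at 0, so ties make up much of these values.

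At a limit of 200 CPM, set the same for each gene, Lxn, Nr4a2 and Gng2 took in nearly all Synpr-high cells, but a part of the others as well. Of the 438 Synpr-high cells, 97.7% reached it for Lxn, 97.9% for Nr4a2 and 96.3% for Gng2. Of the 573 Synpr-lower cells, 22.2%, 33.9% and 32.8% did. Read the other way, 77.1% of the 555 cells at this level of Lxn were Synpr-high, 68.9% of the 623 cells for Nr4a2 and 69.2% of the 610 cells for Gng2, and over the 4 mice these shares ran from 65.9% to 88.5%, 64.4% to 75.4% and 66.1% to 76.8%. At 500 CPM the shares were 87.4%, 87.5% and 94.2%, but Gng2 then reached only 66.2% of Synpr-high cells. Such shares depend on the make-up of the kept cells, of which 438 of 1011 were Synpr-high. Cells of the projection mice were picked partly by label, and 86.2% of RSC-labeled but 15.7% of LEC-labeled cells were Synpr-high. Crym reached 200 CPM in 179 cells, of which 1 was Synpr-high.

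**Figure D3:**
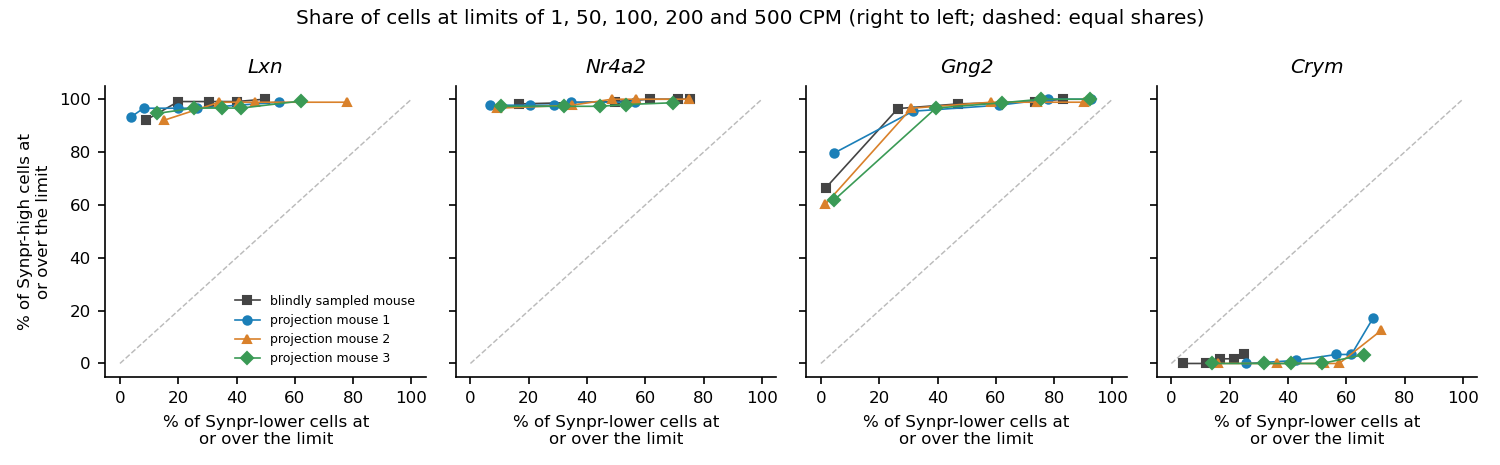
Percent of Synpr-high cells at or over a limit (vertical axis) against percent of Synpr-lower cells at or over it (horizontal axis), for limits of 1, 50, 100, 200 and 500 CPM from right to left, with 1 line per mouse and a dashed line of equal shares. Lxn and Nr4a2 stay near the top at every limit, Gng2 drops at 500 CPM, and Crym runs below the dashed line.

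Cells were then counted by how many of the 3 genes they held. All of Lxn, Nr4a2 and Gng2 reached 200 CPM in 416 of 438 Synpr-high cells (95.0%, exact 95% interval 92.5% to 96.8%) and in 35 of 573 Synpr-lower cells (6.11%, 4.29% to 8.39%). Of the 451 cells with all 3, 92.2% were Synpr-high, and by mouse 94.8%, 96.5%, 89.1% and 89.9%. Among the 35 Synpr-lower cells, 31 were Slc30a3-high (9.04% of 343) and 4 were low for both (1.74% of 230). Of the Synpr-lower cells, 228 reached the level for none of the 3 genes, 103 for Gng2 alone, 81 for Nr4a2 alone and 32 for Lxn alone, while 44 did for Lxn with Nr4a2, 34 for Nr4a2 with Gng2 and 16 for Lxn with Gng2. Only 6 Synpr-high cells reached it for none.

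Few cells lay near the Synpr limit. The 13 cells with 100 to under 200 CPM of Synpr had a median of 46.7 CPM of Lxn, 296 CPM of Nr4a2 and 140 CPM of Gng2, and the 8 cells with 200 to under 400 CPM had 221, 1068 and 349 CPM. The median of Crym was 0 CPM on either side.

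Over all cells of a mouse, Spearman's rho of Lxn with Nr4a2 had a median of 0.77 over the 4 mice, Lxn with Gng2 0.64, Nr4a2 with Gng2 0.65, and Crym -0.56 with Lxn, -0.60 with Nr4a2 and -0.46 with Gng2. Within Synpr-high cells these medians lay between -0.13, for Nr4a2 with Crym, and 0.09. Within Synpr-lower cells Lxn with Nr4a2 kept 0.31 (0.30 to 0.44 over mice), Lxn with Crym -0.24 (-0.35 to -0.18) and Nr4a2 with Crym -0.29, whereas Gng2 had 0.08 with Lxn, 0.07 with Nr4a2 and -0.02 with Crym. The cells of a mouse share plates and dissection, so these values are descriptions and carry no test.

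**Figure D4:**
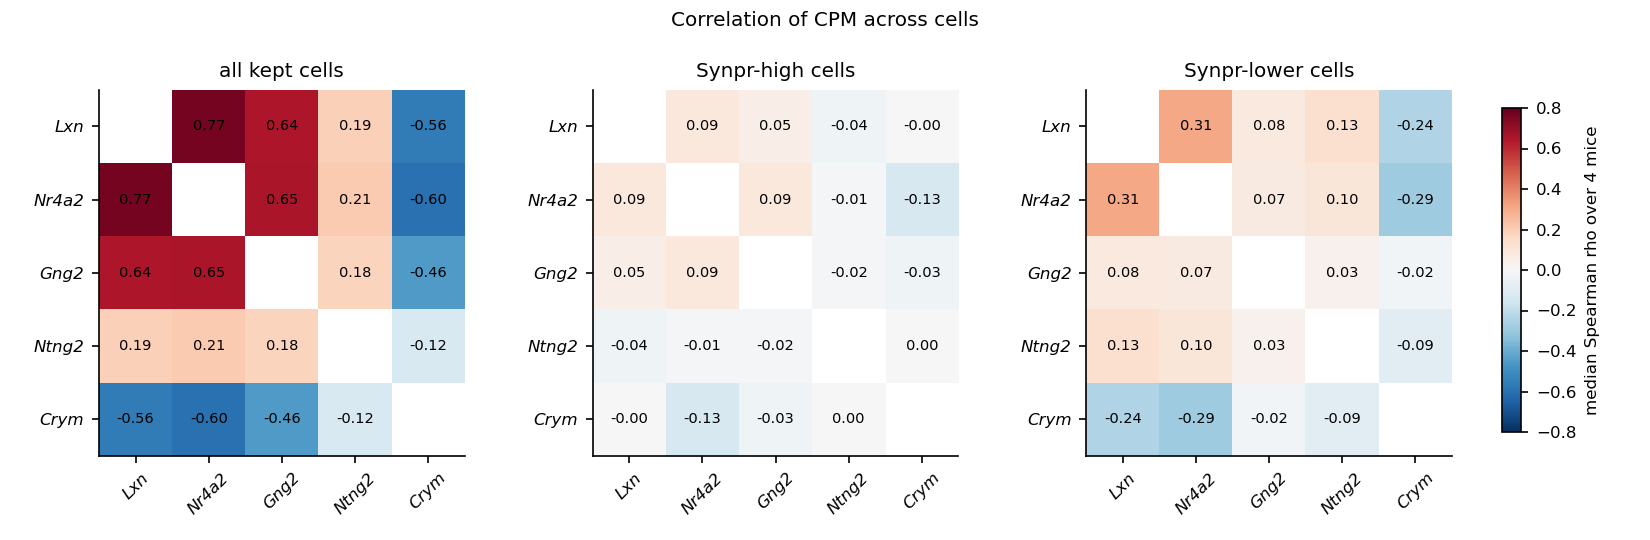
Median over 4 mice of Spearman's rho of CPM across cells, for each pair of the 5 genes, in all kept cells, Synpr-high cells and Synpr-lower cells (color and printed value, from -0.8 in blue to 0.8 in red). Lxn with Nr4a2 has 0.77, 0.09 and 0.31 in the 3 panels.

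In thinned Synpr-lower cells, Crym was found in 41 of the 114 cells with 200 CPM or more of Lxn (36.0%) and in 237 of the 407 cells with less (58.2%). For projection mice 1 to 3 the shares with more Lxn were 36.4%, 52.4% and 26.7%, against 67.2%, 71.8% and 63.9% with less. In the blindly sampled mouse, with the fewest cells, they were 18.8% (3 of 16) and 15.7% (11 of 70), so the share of Crym was lower in cells with Lxn in 3 of 4 mice. Most of the cells with Lxn, 93 of 114, were Slc30a3-high, so these shares mix classes. Within Slc30a3-high cells the shares were 18.2%, 14.3%, 52.8% and 25.6% with more Lxn and 17.5%, 66.7%, 69.4% and 55.7% with less, again lower in 3 of 4 mice. Within cells low for both, where few cells had Lxn, Crym was in 1 of 5, 3 of 4, 3 of 6 and 2 of 6 cells with more and in 4 of 30, 44 of 65, 27 of 36 and 41 of 54 cells with less, a lower share in 2 of 4 mice. A paired permutation test over so few mice cannot reach the threshold of 0.05, and none was made.

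The next question was how the genes differed by projection target. In sums per label of the 3 projection mice, Lxn, Nr4a2 and Gng2 rose in RSC-labeled cells against LEC-labeled cells, whereas 3.95% of 13976 genes passed this test. Lxn stood at 1335, 1385 and 1495 CPM in RSC-labeled cells of projection mice 1 to 3, at 503, 516 and 408 CPM in LEC-labeled cells and at 403, 875 and 642 CPM in unlabeled cells. Nr4a2 stood at 1224, 1299 and 1512 CPM, at 559, 380 and 410 CPM, and at 495, 544 and 766 CPM. Every RSC-labeled sum was above every other sum for both genes, and LEC-labeled and unlabeled cells overlapped. Gng2 had the same order, at 667, 526 and 605 CPM in RSC-labeled, 332, 213 and 245 CPM in LEC-labeled and 291, 347 and 400 CPM in unlabeled cells. Crym, the hormone-binding protein gene, was at 31.3, 12.97 and 0.66 CPM in RSC-labeled, 104, 157 and 115 CPM in LEC-labeled and 308, 177 and 155 CPM in unlabeled cells, so its RSC-labeled sums lay below all others.

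The fold changes between RSC-labeled and LEC-labeled cells were 1.56 ± 0.22 for Lxn, 1.58 ± 0.18 for Nr4a2 and 1.19 ± 0.17 for Gng2 (adjusted p = 0.00381, 0.00164 and 0.0041, each higher in 3 of 3 mice). The call was lost for Lxn without projection mouse 3 (adjusted p = 0.124), for Nr4a2 without projection mouse 2 (0.055) and for Gng2 without projection mouse 2 or 3 (0.0686 and 0.103). Crym, at -3.08 ± 0.80, just missed the threshold (adjusted p = 0.060, lower in 3 of 3 mice) and passed it with mouse as a block (-3.61, adjusted p = 0.0394). Ntng2 did not pass (1.85 ± 0.83, adjusted p = 0.294). In the 1 plate with both labels, of projection mouse 3, 34 RSC-labeled and 44 LEC-labeled cells had 1400 and 575 CPM of Lxn, 1475 and 574 CPM of Nr4a2, 649 and 291 CPM of Gng2 and 1.08 and 107 CPM of Crym, so all 4 differences kept their direction within a plate. Across the other plates, label and plate cannot be told apart.

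Against unlabeled cells, RSC-labeled cells were higher for Lxn (1.14 ± 0.22, adjusted p = 0.030), Nr4a2 (1.16 ± 0.18, adjusted p = 0.0155) and Gng2 (0.79 ± 0.17, adjusted p = 0.0477) and lower for Crym (-3.85 ± 0.83, adjusted p = 0.047), with 1.63% of genes called. These comparisons share the RSC-labeled sums with those above. With mouse as a block Gng2 no longer passed (adjusted p = 0.0626). Without 1 projection mouse the call was lost for Lxn and Gng2 whichever mouse was left out (adjusted p = 0.0696 to 0.282 and 0.135 to 0.236), for Crym without projection mouse 1 or 2 (0.0823 and 0.314) and for Nr4a2 without projection mouse 2 (0.182). LEC-labeled and unlabeled cells differed in 0% of genes (0 called by edgeR, 2 with mouse as a block, 1079 at an unadjusted p under 0.05, and 114 called by DESeq2). The members differed there by -0.43 ± 0.21 for Lxn, -0.42 ± 0.18 for Nr4a2, -0.39 ± 0.17 for Gng2 and -0.77 ± 0.73 for Crym, none past the threshold.

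The labels also differed in their make-up by class. Synpr-high cells were 86.2% of the 247 RSC-labeled cells (81.3%, 80.0% and 92.9% in projection mice 1 to 3), 15.7% of the 286 LEC-labeled cells (22.5%, 14.5% and 12.3%) and 27.9% of the 240 unlabeled cells (22.5%, 28.4% and 32.6%). In the plate with both labels the shares were 85.3% and 22.7%. The labels were therefore compared again within each class, in sums of 11 to 18 LEC-labeled Synpr-high cells and 8 to 14 RSC-labeled Synpr-lower cells per mouse.

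Within Synpr-high cells no difference by label was detected. Lxn was at 1476, 1492 and 1532 CPM in RSC-labeled and 1535, 2068 and 1782 CPM in LEC-labeled Synpr-high cells of projection mice 1 to 3. The fold change was -0.26 ± 0.36 for Lxn, -0.06 ± 0.30 for Nr4a2 and 0.12 ± 0.18 for Gng2 (adjusted p = 1 for each). Over all genes 0% passed (0 called by edgeR, 508 at an unadjusted p under 0.05, and 16 called by DESeq2).

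Within Synpr-lower cells Lxn did differ by label. It was at 398, 920 and 725 CPM in RSC-labeled Synpr-lower cells of projection mice 1 to 3 and at 52.0, 186 and 147 CPM in LEC-labeled ones. The groups did not overlap, and the RSC-labeled values remained below all Synpr-high values. Lxn rose by 2.41 ± 0.38 (adjusted p = 0.0231, higher in 3 of 3 mice), whereas 0.193% of 12410 genes passed (24 genes, and 15 with mouse as a block). The call was lost without projection mouse 2 (2.47, adjusted p = 0.241) or 3 (2.45, adjusted p = 0.421). In the plate with both labels, 5 RSC-labeled Synpr-lower cells had 724 CPM and 34 LEC-labeled ones 112 CPM. Gng2 did not differ detectably (0.04 ± 0.18, adjusted p = 0.967), and neither did Nr4a2 (1.04 ± 0.31, adjusted p = 0.232, higher in 3 of 3 mice), which DESeq2 called (1.09, adjusted p = 0.014).

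These sums hold few cells, and the Lxn in them was uneven. At least 200 CPM of Lxn was reached by 3 of 12, 8 of 14 and 5 of 8 RSC-labeled Synpr-lower cells and by 3 of 62, 21 of 65 and 27 of 114 LEC-labeled ones. Gnb4, a G protein beta subunit gene fixed as a core-like marker, summed to 311, 623 and 264 CPM there and to 114, 168 and 130 CPM in LEC-labeled Synpr-lower cells. Gfra1, another core-like marker, summed to 19.8, 27.6 and 26.2 CPM and to 0.80, 0.997 and 3.09 CPM. Its median per RSC-labeled cell was 0 CPM in each mouse, with highest cells at 71.3, 257 and 239 CPM, so few cells carried these sums. Slc17a6, also listed as core-like, was low and went either way (0.62, 8.08 and 0 CPM against 0.099, 0 and 0.057 CPM). Of the shell-like markers, Nnat was lower in the RSC-labeled cells of 3 of 3 mice (279, 603 and 411 CPM against 804, 1190 and 1621 CPM). Slc30a3 went either way (451, 163 and 275 CPM against 227, 361 and 263 CPM), and Spon1, also listed, was not compared here. Synpr, whose limit set these groups, was also higher in RSC-labeled cells in 3 of 3 mice. It summed to 14.8, 26.3 and 9.94 CPM against 6.36, 2.69 and 5.61 CPM, so these cells were not matched for Synpr. Of the other markers compared, only Gnb4 and Gfra1 rose with Lxn in 3 of 3 mice, and Nnat ran against it. The part of these markers in the Lxn difference was not tested.

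Within each label, Synpr-high cells were above Synpr-lower cells for Nr4a2 and Gng2. Among RSC-labeled cells Gng2 rose by 1.94 ± 0.19 and Nr4a2 by 2.39 ± 0.32 (adjusted p = 2.94e-04 and 0.00265), with 1.61% of genes called, and Lxn did not pass (1.14 ± 0.36, adjusted p = 0.155). The Nr4a2 call was lost without projection mouse 2 or 3 (adjusted p = 0.0568 and 0.0846). Among LEC-labeled cells Lxn rose by 3.81 ± 0.40, Nr4a2 by 3.49 ± 0.33 and Gng2 by 1.87 ± 0.18 (adjusted p = 1.35e-04, 5.21e-05 and 7.00e-05), with 2.59% of genes called. Crym also passed there (adjusted p = 0.0281, and 0.240 and 0.0928 without projection mouse 2 or 3), with 4, 1 and 0 counts in the LEC-labeled Synpr-high cells. Whether the class difference of Lxn itself differed by label was tested as an interaction, which came to -2.67 ± 0.52 and did not pass (adjusted p = 0.122, with 0.0645% of genes called, 8 in all and 1 with mouse as a block). DESeq2 called it (-2.74, adjusted p = 0.00455), as did the fit without projection mouse 1 (-2.65, adjusted p = 0.0296).

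**Figure D5:**
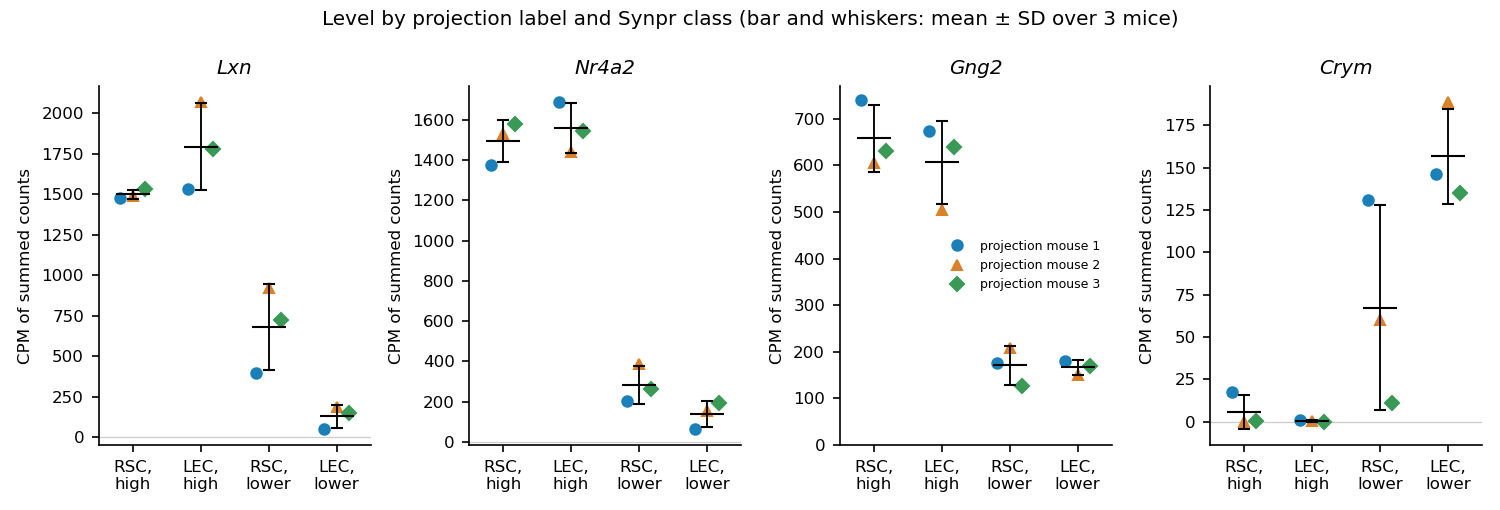
Level (CPM of counts summed per mouse, TMM scaled) of Lxn, Nr4a2, Gng2 and Crym in RSC-labeled and LEC-labeled cells of the Synpr-high and Synpr-lower groups, with 1 point per projection mouse and the mean ± SD over 3 mice. Lxn in RSC-labeled Synpr-lower cells (398 to 920 CPM) lies between LEC-labeled Synpr-lower cells (52.0 to 186 CPM) and all Synpr-high sums.

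The partners of the members were taken from a list of 36 genes of the same pathways, of which 34 were in the tables and 25 could be tested. Between Synpr-high and Synpr-lower cells 3 were higher and 6 lower, beside 4.48% and 4.34% of all genes tested, and the median log2 fold change of the 25 was -0.0086, against -0.0006 over all genes tested. The 3 that rose were all from the list of G protein subunits, the beta subunits, which pair with gamma subunits, Gnb4 (3.003 ± 0.21, adjusted p = 2.19e-05) and Gnb1 (0.52 ± 0.13, adjusted p = 0.0339) and the gamma subunit Gng4 (1.70 ± 0.40, adjusted p = 0.0248). Of the same 10 subunit genes tested, Gng7 (-2.19 ± 0.47), Gng12 (-1.60 ± 0.40) and Gnb5 (-0.74 ± 0.16) fell (adjusted p = 0.0161, 0.0344 and 0.0192). Gnb4 was also fixed as a core-like marker, so its rise is not independent of that list.

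Of 5 nuclear receptors tested for Nr4a2, Rxra, a retinoid X receptor, fell by 2.39 ± 0.41 (adjusted p = 0.00484), and Nr4a1, Nr4a3, Rxrb and Rxrg did not pass. For Crym, the thyroid hormone receptor genes Thra (-0.63 ± 0.20) and Thrb (-0.90 ± 0.30) did not pass (adjusted p = 0.0964 and 0.100). None of the 3 netrin-G ligand family genes Lrrc4, Lrrc4b and Lrrc4c passed (adjusted p = 0.935, 0.976 and 0.0616). Of these, Lrrc4 is the one named above as the partner of netrin-G2. Of 3 carboxypeptidase genes tested for Lxn, Cpa6 fell, from 0.996 to 2.92 CPM in Synpr-lower cells to 0.0544 CPM in those of projection mouse 1 and 0 in the other Synpr-high sums (adjusted p = 0.00474). Between RSC-labeled and LEC-labeled cells, where 3.95% of all genes passed, Gnb4 (1.70 ± 0.19) and Gng4 (1.52 ± 0.33) rose and Thrb (-1.07 ± 0.24) fell (adjusted p = 0.00164, 0.0271 and 0.0316).

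The genes whose pattern was most like each member were found by Pearson's r of log2(CPM + 1) over the 12 sums of 4 mice and 3 classes, among genes with a mean of at least 10 CPM. These 12 sums share mice and the class split, and r is given as a description. For Lxn the nearest were Filip1 (0.97), Gnb4 (0.968) and Gpd2 (0.953), and for Nr4a2 they were Pdrg1 (0.972), Arntl (0.962) and Rgs12 (0.961). For Gng2 they were Trem2 (0.987), Synj1 (0.983) and Cadps2 (0.98), and for Crym Ramp3 (0.982), Fezf2 (0.969) and Gaa (0.959). Fezf2, a transcription factor gene of deep-layer cortical projection neurons, was among the deep layer markers fixed here. For Ntng2, whose sums held few counts, they were Mgp (0.945), Bok (0.933) and Cul4b (0.925).

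In the annotation, exons of Lxn share up to 63 bases with Gfm1 on the opposite strand, those of Gng2 897 bases with Gm48283 on the opposite strand and those of Ntng2 461 bases with 6530402F18Rik on the same strand. Whether counting used the strand is not given in the sources used here, so reads of these pairs may not be told apart. Nr4a2 and Crym shared exon bases with no other gene.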

How the data were processed

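Single cells were captured by hand and read by 3′ tag sequencing. The authors removed adapters, assigned reads to cell barcodes and molecular identifiers, aligned them with STAR and deposited raw counts per gene and cell, with text labels (plate, animal and projection label) per cell. The build was NCBIM37 per the submitters' processing notes. Whether counts were collapsed by molecular identifier and whether strand was used are not given in the sources used here, so counts were treated as reads and intervals cover counting error only. Levels of different genes were not compared, since tags depend on the gene.

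From the 1112 cells, 1011 in which both Snap25 and Slc17a7 had a count were used, 89 spike-in rows were left out, and counts were summed per mouse and group (at least 5 cells). The table of the blindly sampled mouse listed 16786 genes and that of the projection mice 23216. Genes missing from either were given 0 counts in its cells. Sums were tested with edgeR 4.0.16 (R 4.3.3; TMM, filterByExpr, quasi-likelihood F test, Benjamini-Hochberg, threshold 0.05). Beforehand, a comparison from each kind of sum was tried on simulated data, which had no mouse effect. The other comparisons were not tried this way. Per-cell measures used Python 3.11.15, numpy 2.4.6, pandas 2.3.3 and scipy 1.17.1. No doublet caller was run, as cells were picked singly. The kept cells had 434 to 495406 counts. Thinning to 20000 counts left out 84 cells, 67 of them from the blindly sampled mouse, 32 Synpr-high and 52 Synpr-lower.

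Sums from the same animal are paired. About the group means, the median correlation of their deviations was 0.38 for Synpr classes (other pairs -0.134), 0.301 for the 3 classes (-0.119), 0.0918 for labels (-0.0578) and 0.0519 for labels within classes (-0.0258). The main fit has no mouse block and the blocked fit is an alternative. The other alternatives were DESeq2 1.42.0, its size factors in edgeR, no filter, each mouse left out, thinned counts, only cells without a projection label, other Synpr and Slc30a3 limits and, chosen after seeing the data, genes of both tables only. The cells without a projection label were all kept cells of the blindly sampled mouse and the unlabeled cells of the projection mice, 478 in all.

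The named genes were the 5 members, the genes that define groups, a list of partners and, for each member, the 3 genes most like it. The values of 1 listed partner are not reported here. Members and lists were chosen with earlier results of these data known.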

Additional observations from a re-analysis of the deposited data

Results flagged for a closer look

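In 35 groups of 4 mice, the mouse farthest from the others was compared with Dixon's 95% limit, which chance passes in about 1 of 20 groups, and 2 groups passed. The share of thinned Synpr-high cells with Ntng2 was 8.054% in projection mouse 3 and 5.747%, 5.882% and 5.882% in the other mice. These are shares of 149 cells in that mouse and of 85 to 87 cells in the others, so few cells make the gap. The mean share also moved with the random draw used for thinning, as given at the end. The area under the curve of Crym was 0.3912 in the blindly sampled mouse and 0.1607, 0.1761 and 0.1896 in the projection mice, and the blindly sampled mouse also had the lowest depth (a median of 26023 counts per kept cell). With every cell thinned to 20000 counts it was 0.441 in that mouse and 0.190, 0.178 and 0.228 in the others, so the gap was also present at equal depth.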

How the results depend on the processing

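Of the members' fold changes under all alternatives, 554 kept direction and side of the threshold, 18 passed where the reported fit did not, 33 no longer passed and 13 changed sign; of counts of genes called, 69 stayed within 1.5 times and 57 did not. The cause of these changes was not tested. Ntng2 rested on few counts, and the label comparisons on 3 mice.

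Unlabeled cells in this paragraph include all kept cells of the blindly sampled mouse. Between Synpr-high and Synpr-lower cells 1203 genes were called, 1995 with mouse as a replicate block, 601 in unlabeled cells only and 545 (without projection mouse 3) to 1581 (without the blindly sampled mouse) with a mouse left out. The Ntng2 difference lost its call with a Synpr limit of 50 CPM (2.31), no filter (2.47) and unlabeled cells (2.47, adjusted p = 0.270), and was 2.01 to 2.85 with a mouse left out, and that of Crym -7.05 to -4.87. Against Slc30a3-high cells 923 genes were called, 1510 with the block, 470 in unlabeled cells and 369 to 1071 with a mouse left out, where Crym was -6.41 to -4.26. Against cells low for both the counts were 1163, 1795, 680 and 503 to 1269, and Ntng2 was 3.23 at a Slc30a3 limit of 100 CPM, 4.96 in unlabeled cells and 3.92 to 4.70 with a mouse left out. Between the 2 lower classes 81 genes were called, 279 by DESeq2, 226 with the block and 6 to 57 with a mouse left out, and Gng2 was -0.014 in thinned counts.

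Between RSC-labeled and LEC-labeled cells 552 genes were called, 1145 by DESeq2 and 59 (without projection mouse 3) to 391 with a mouse left out. Crym passed with DESeq2 (-3.05), genes of both tables (-3.07), the block (-3.61), no filter (-3.08) and thinned counts (-3.71). With a mouse left out it was -4.55 to -2.53, Lxn 1.42 to 1.65, Nr4a2 1.43 to 1.84 and Gng2 1.13 to 1.31. Against unlabeled cells RSC-labeled cells had 228 calls, 663 by DESeq2, 454 in thinned counts and 8 to 47 with a mouse left out, where Ntng2 was -0.26 to 1.71. LEC-labeled against unlabeled cells had 114 by DESeq2, 2 with the block, 9 with no filter, 46 in thinned counts and 0 to 2 with a mouse left out.

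Between labels within Synpr-high cells DESeq2 called 16 genes and the fit with no filter 5. Ntng2 there was -0.03 with DESeq2 (-0.0271) and with its size factors (-0.0275), -0.27 with the block and -0.67 to 0.32 with a mouse left out, Nr4a2 was -0.13 to 0.059 and Crym -1.82 to 4.07. Within Synpr-lower cells 24 genes were called, 288 by DESeq2, 15 with the block, 61 with no filter, 40 in thinned counts and 0 to 7 with a mouse left out, where Lxn was 2.31 to 2.47 and Gng2 -0.22 to 0.20. Gng2 was -0.0053 with no filter, and Nr4a2 passed with DESeq2 (1.09). Between classes within RSC-labeled cells 200 genes were called, 655 by DESeq2, 336 in thinned counts and 23 to 49 with a mouse left out, and Lxn passed with no filter (1.20) and in thinned counts (1.22). Within LEC-labeled cells 322 were called, 840 by DESeq2 and 89 to 105 with a mouse left out. The interaction had 8 calls, 113 by DESeq2, 1 with the block, 24 with no filter and 0 to 1 with a mouse left out, and Gng2 was -0.0005 with DESeq2, -0.0327 in thinned counts and -0.0047 to 0.28 with a mouse left out. Lxn passed there with no filter (-2.59) and in thinned counts (-2.66).

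The block changed no call of a member other than Crym between RSC-labeled and LEC-labeled cells, Gng2 between RSC-labeled and unlabeled cells and Lxn between the 2 lower classes. The area under the curve of Gng2 was 0.924 at a Synpr limit of 50 CPM and 0.917 in thinned counts, and that of Nr4a2 0.972 and 0.962 at limits of 100 and 50 CPM. With all counts the share of Synpr-high cells was 9.11% for Crym and 13.4% for Ntng2, and of Synpr-lower cells 89.6% for Gng2, 61.1% for Lxn and 2.70% for Ntng2. Thinned to 10000 counts, Synpr-high shares were 98.2% for Gng2 and 2.03% for Ntng2, and Synpr-lower shares 66.3% for Gng2 and 36.1% for Lxn. With at least 2 counts asked for, Ntng2 was in 1.25% of Synpr-high and 0% of Synpr-lower cells, and Gng2 and Lxn in 62.5% and 32.9% of Synpr-lower cells. With another random draw Ntng2 was in 4.43% of Synpr-high cells.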
